A study of Homo sapiens with 4 samples.

Results

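The insulin and insulin-like growth factor (IGF) system was followed in HGC-27 cells, a human gastric cancer line, through 10 genes of 31907 gene names counted. The genes were chosen by name as the receptors IGF1R and INSR, the receptor substrates IRS1 and IRS2, and the binding proteins IGFBP2 to IGFBP7. All 10 had counts in each of the 4 libraries and all 10 were expressed highly enough to be tested. IGFBP1 and IRS4 belong to the same families but were not among the 10. They were in a list of 6 further genes, of which only IGF2R and IGFBPL1 were tested. The 10 were chosen with earlier results of these data known. The libraries came from cells kept for 48 h with PBS (2 libraries, no cytokine) or with 200 ng/ml recombinant IL-17B (rIL-17B, 2 libraries), and the comparison asks what this cytokine of the IL-17 family does to the transcriptome. Total RNA was read as Smart-seq2 cDNA, made from an oligo-dT primer and amplified by PCR. The labels do not say whether the libraries came from separate cultures, so p-values measure only the spread between these libraries, which may be technical.

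IGF1R and INSR are receptor tyrosine kinases at the cell surface. When IGF1, IGF2 or insulin binds, they phosphorylate the docking proteins IRS1 and IRS2, which recruit phosphatidylinositol 3-kinase (PI3K) and lead to AKT, while the adaptor SHC1 leads to RAS and ERK. The IGF binding proteins are secreted and hold IGFs outside the cell, which can keep the ligand from the receptor or deliver it, and proteases such as PAPPA cut them to release the ligand. In gastric and other carcinomas the IGF receptor is known as a growth and survival signal.

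Library totals lay between 12888029 and 17555879 counts, so that 3 counts corresponded to between 0.171 and 0.233 CPM, which is the count divided by the library total and scaled to 1000000. Intervals and floors cover counting error only, because PCR copies carry no molecular identifiers here. rIL-17B replicate 1 stood apart from the other 3 libraries: 342 genes had at most 3 counts in it and at least 100 in each other library, and no other library had such a gene. The 6 mesenchymal markers examined (VIM, CDH2, ZEB1, FN1, COL1A1 and COL1A2) were all at least 2-fold lower there, with a summed level of 720 CPM against 46879 and 46175 CPM with PBS and 39162 CPM in rIL-17B replicate 2. The 6 epithelial markers (EPCAM, CDH1, KRT8, KRT18, KRT19 and MUC1) summed to 798 and 807 CPM with PBS and to 1852 and 1026 CPM in rIL-17B replicates 1 and 2, with KRT8 and KRT18 making up most of each sum. In rIL-17B replicate 1, 2 of the 6 were at least 2-fold higher (KRT8 and KRT18) and 1 at least 2-fold lower: KRT19, with 1 count against 47 and 43 in the controls and 58 in replicate 2. CDH1 had at most 11 counts in any library. The 6 monocyte and macrophage markers (PTPRC, CD14, LYZ, CSF1R, ITGAM and TYROBP) summed to between 8.42 and 10.7 CPM. In rIL-17B replicate 1, 4 of them had 0 counts, though LYZ and TYROBP had at most 4 and 8 counts in any library. CD14 had 4 counts in rIL-17B replicate 1 against 23 and 20 in the controls. CSF1R went the other way, with 8.14 CPM there and 6.15 CPM in replicate 2, against 3.90 and 5.59 CPM in the controls. FN1, which encodes fibronectin, had 149 CPM in rIL-17B replicate 1 against 33131 and 32458 CPM in the controls, and COL1A2, a collagen chain, had 1.09 CPM against 5516 and 5248 CPM. Whether that library came from the cells and the treatment on its label was not tested, and this bears on each of its values. The protocol text of the labels speaks of monocytes, while the other labels name HGC-27. The part of these differences in the results below was not tested, and with 1 such library among 2 treated ones the library and the treatment cannot be told apart. Fewer cells of a kind and less RNA per cell cannot be told apart in such libraries.

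The stretches before the start sites of IGF1R, the member with the largest excess over PBS, and of IGFBP3, IGFBP4 and IGFBP5, the members farthest below PBS in rIL-17B replicate 1 are printed to show the letters that control regions of these genes hold. Each is given 5′ to 3′ on the gene's strand and ends at the base before the start site (RefSeq, GRCh38.p14). For IGFBP3 this RefSeq start site lies inside the GENCODE gene span given further below, so its stretch falls within that span. Capitals mark the GC box GGGCGG, the letters bound by SP family factors, on either strand, and the TATA box TATAAA.
IGF1R (chr15:98648289-98648538, + strand): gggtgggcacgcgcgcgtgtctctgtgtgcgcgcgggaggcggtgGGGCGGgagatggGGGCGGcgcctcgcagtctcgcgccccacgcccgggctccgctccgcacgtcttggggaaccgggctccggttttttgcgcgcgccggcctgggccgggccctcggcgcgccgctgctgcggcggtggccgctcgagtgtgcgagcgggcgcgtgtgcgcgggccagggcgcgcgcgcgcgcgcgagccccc
IGFBP3 (chr7:45921273-45921522, - strand): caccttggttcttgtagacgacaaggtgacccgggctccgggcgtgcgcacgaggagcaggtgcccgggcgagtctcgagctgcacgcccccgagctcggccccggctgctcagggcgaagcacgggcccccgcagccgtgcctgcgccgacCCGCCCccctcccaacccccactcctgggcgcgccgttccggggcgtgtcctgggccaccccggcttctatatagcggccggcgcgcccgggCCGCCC
IGFBP4 (chr17:40443200-40443449, + strand): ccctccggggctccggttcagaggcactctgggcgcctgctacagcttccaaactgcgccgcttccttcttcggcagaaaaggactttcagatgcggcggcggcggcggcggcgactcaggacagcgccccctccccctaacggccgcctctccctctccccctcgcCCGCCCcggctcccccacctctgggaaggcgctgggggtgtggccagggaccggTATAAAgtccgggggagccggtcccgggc
IGFBP5 (chr2:216695550-216695799, - strand): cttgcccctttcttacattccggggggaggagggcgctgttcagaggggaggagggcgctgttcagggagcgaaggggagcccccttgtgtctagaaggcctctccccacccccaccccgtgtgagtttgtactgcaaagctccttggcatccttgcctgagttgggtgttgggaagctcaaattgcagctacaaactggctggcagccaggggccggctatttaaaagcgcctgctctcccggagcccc

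The windows searched ran from 250 bases before to 50 bases after each start site. Over such windows the share of G and C was 79.7% for IGF1R, 74.7% for IGFBP3, 74.0% for IGFBP4 and 59.0% for IGFBP5, against a median of 58.7% over 35116 RefSeq promoters. Of the 8 members with a single window, 7 held a GC box and IGFBP5 held none, and 45.0% of all promoters held one, counting overlapping matches on both strands. TATAAA on either strand was found in 1 of the 8, IGFBP4, at 29 bases before the start, and in 11.5% of all promoters. The FOXO core GTAAACA on either strand was found in 1 of the 8, IGFBP6, at 186 bases before the start, and in 3.42% of all promoters. IGFBP2 and IGFBP7 were not searched. These matches describe the letters only.

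In the PBS libraries the binding proteins made up most of the transcripts of these genes. The exon length used merges all transcripts of a gene, which can exceed the length expressed, so the order between genes is rough. Scaled by exon length, IGFBP4 stood highest at 305 ± 7.79 CPM per kilobase (SD, n = 2 libraries, as for the next values), followed by IGFBP7 at 89.9 ± 6.25, IGFBP3 at 71.5 ± 4.95 and IGFBP6 at 48.8 ± 0.033 CPM per kilobase. IGFBP2 at 15.8 ± 4.55 and IGF1R at 15.5 ± 0.0016 CPM per kilobase changed places between the PBS libraries, so that their order is within the spread. IGFBP5 followed at 10.2 ± 1.32 CPM per kilobase. IRS2 at 5.28 ± 0.184 and IRS1 at 4.83 ± 0.173 CPM per kilobase were close, with the same order in both PBS libraries, and INSR was lowest at 2.96 ± 0.065 CPM per kilobase. rIL-17B replicate 2 had nearly the same order, with IGF1R above IGFBP2 and IRS1 (5.002 CPM per kilobase) above IRS2 (3.86). In rIL-17B replicate 1 the order was another one. IGF1R stood first at 31.5 CPM per kilobase, above IGFBP7 at 17.2 and IGFBP4 at 9.83, and IGFBP5 was last at 0.276 CPM per kilobase.

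**Figure D1:**
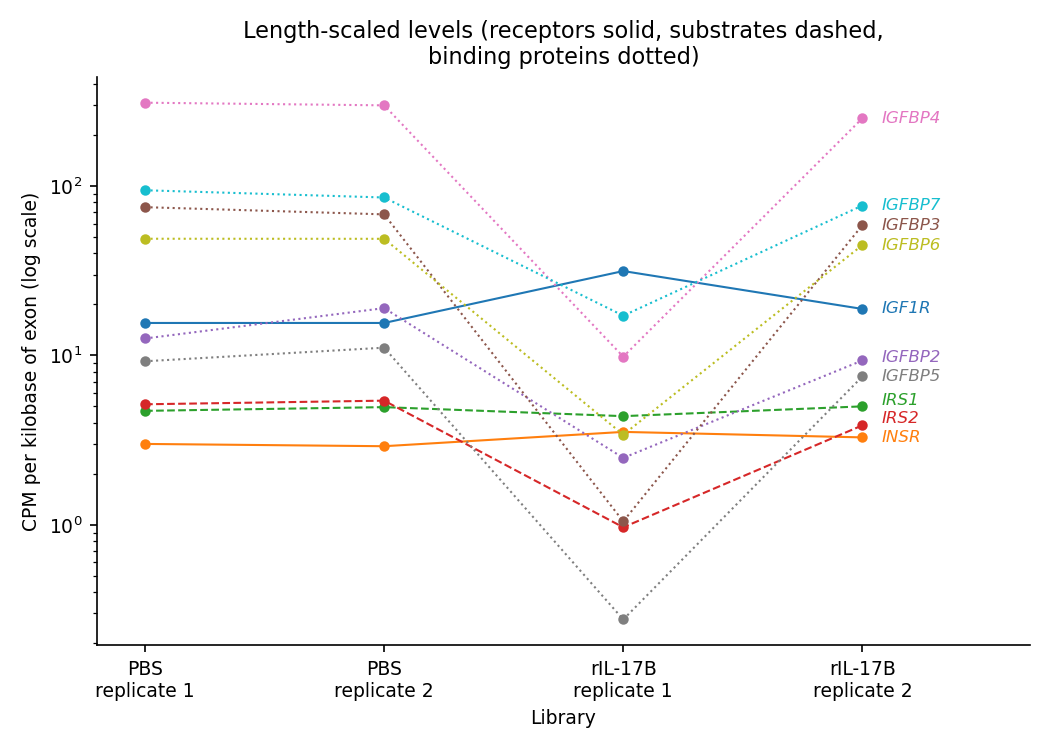
Level of each gene in CPM per kilobase of exon (vertical log axis) in each of the 4 libraries (horizontal axis), where a line joins the points of 1 gene only to help the eye, solid for receptors, dashed for substrates and dotted for binding proteins. IGFBP4 is highest in 3 libraries and IGF1R, at 31.5 CPM per kilobase, in rIL-17B replicate 1.

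The comparison of rIL-17B with PBS gave no member past the threshold. With edgeR's quasi-likelihood test over 16361 genes and Benjamini-Hochberg adjustment, 0 of the 10 members had an adjusted p under 0.05, as did 0.0% of all genes tested, and 0 members had an unadjusted p under 0.05, against 1.38% of all genes. DESeq2 also called 0 of 10 after adjustment. By DESeq2, 2 of the 10 had an unadjusted p under 0.05, as did 457 of the 16361 genes tested. An exact permutation test of 2 against 2 libraries cannot give a two-sided p below 0.333, so none was run for single genes. The 2 rIL-17B libraries differed from each other far more than the PBS libraries did. Over the 16361 genes tested, chi-square per degree of freedom was 139 between the rIL-17B libraries and 3.66 between the PBS libraries. Of the members, 7 were at least 2-fold apart between the rIL-17B libraries and 0 between the PBS libraries. The share of all genes that far apart was not counted, so this is not read as particular to the members. Each member is therefore given by library. Both rIL-17B libraries are set against the same PBS libraries and the comparisons are not independent.

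**Figure D2:**
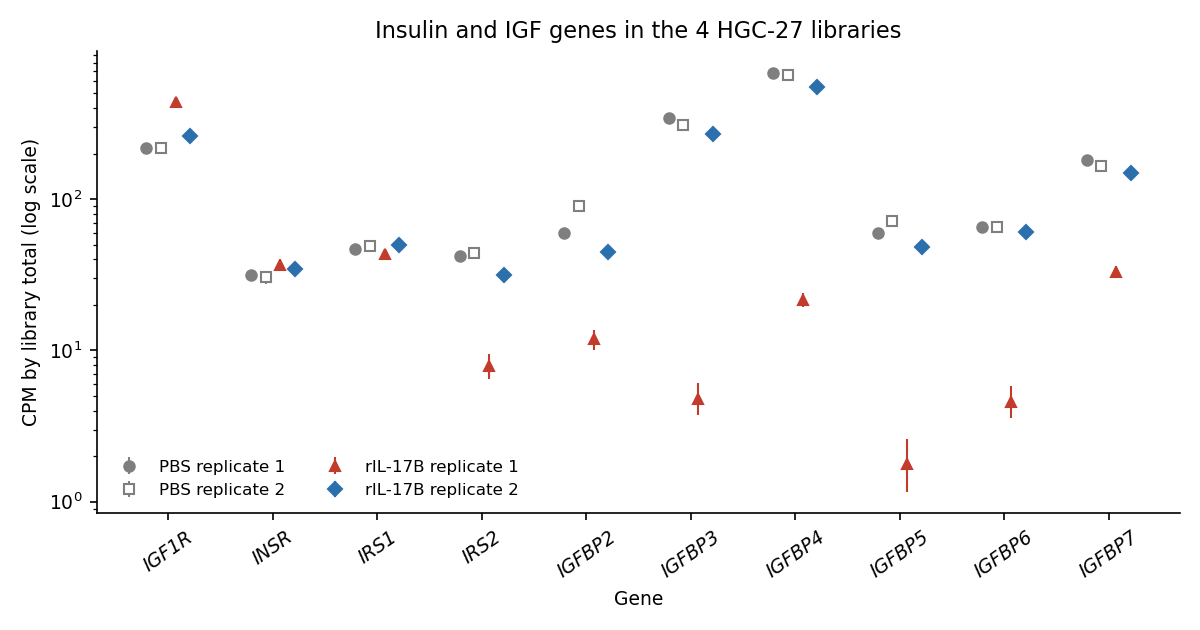
CPM by library total (vertical log axis) of the 10 genes (horizontal axis) in the 4 libraries, with bars for the 95% Poisson interval of the count, which are mostly smaller than the points. The binding proteins and IRS2 lie lowest in rIL-17B replicate 1, for example IGFBP5 at 1.78 CPM, while IGF1R lies highest there at 439 CPM.

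Of the receptors, IGF1R (chromosome 15, 98648539 to 98964530, coordinates from GENCODE 29 on GRCh38 here and for the other genes) reached 3445 and 2792 counts in the controls, against 6411 and 4602 in rIL-17B replicates 1 and 2. In CPM these were 217 and 217 with PBS and 439 and 262 with rIL-17B. Both treated libraries were above both PBS libraries, by 2.02-fold and 1.21-fold over the PBS mean. The log2 fold change was 0.61 (standard error, SE, 0.25, edgeR adjusted p = 0.661), the largest positive value among the members and the smallest unadjusted p among them, 0.0766. IGF1R was the single member at least 2-fold above the PBS mean in rIL-17B replicate 1, where 2.61% of all genes were, but with TMM scaling its log2 ratio there was 0.88 in place of 1.02, which is under 2-fold.

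INSR, the insulin receptor (chromosome 19, 7112255 to 7294034), had 499 and 392 counts in the controls, against 540 and 602 in the treated libraries. Its level was 31.4 and 30.4 CPM in the controls, against 36.9 and 34.3 CPM in the treated libraries, again with both treated libraries above both PBS libraries. The log2 fold change was 0.13 (SE 0.11, edgeR adjusted p = 0.661). IGF1R and INSR were the 2 members whose treated libraries lay above both controls, a pattern found in 31.5% of all genes tested. IGF1R took 87.3% (exact 95% binomial interval 86.3 to 88.4) and 87.7% (86.5 to 88.8) of the counts of both receptors with PBS. The first treated library had a share of 92.2% (91.6 to 92.8) and the second one of 88.4% (87.5 to 89.3), whose interval overlaps those of the PBS libraries. A share within a library does not depend on how the libraries are scaled.

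The substrates differed from each other. IRS1 (chromosome 2, 226731317 to 226799759), the docking protein first found downstream of insulin, had 745 and 635 counts in the controls, against 637 and 874 in the treated libraries, or 46.8 and 49.3 CPM against 43.6 and 49.8 CPM. The groups overlapped, and IRS1 was the only member of which this was true. The log2 fold change was -0.11 (SE 0.15, edgeR adjusted p = 0.739) and turned to 0.05 without rIL-17B replicate 1.

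IRS2 (chromosome 13, 109752698 to 109786568), the second docking protein, had 666 and 567 counts in the controls, against 115 and 552 in the treated libraries. Its level was 41.9 and 44.0 CPM in the controls, against 7.87 and 31.4 CPM in the treated libraries, which is 18.3% and 73.2% of the PBS mean. The log2 fold change was -1.16 (SE 0.77, edgeR adjusted p = 0.661). Among the counts of both substrates, the share of IRS2 was 47.2% (exact 95% binomial interval 44.6 to 49.8) and 47.2% (44.3 to 50.04) with PBS, 15.3% (12.8 to 18.1) in rIL-17B replicate 1 and 38.7% (36.2 to 41.3) in replicate 2. The intervals of both treated libraries thus lay below those of both PBS libraries, and the treated libraries also differed from each other. The intervals take each read as independent and hold neither PCR copies nor spread between cultures. A stretch of 115 exon bases of IRS2 overlaps AL162497.1 on the other strand, and without strand in the counting reads there are uncertain.

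All 6 binding proteins were lower in both treated libraries than in both PBS libraries. With IRS2 they made 7 of 10 members with this pattern, which 27.5% of all genes tested showed. Summed over the 6, the level was 1392 and 1362 CPM in the controls, against 77.7 and 1121 CPM in the treated libraries, or 5.64% and 81.4% of the PBS mean. The 7 genes were also the members at least 2-fold and at least 4-fold below the PBS mean in rIL-17B replicate 1, where 18.6% and 9.94% of all genes were. None of the 10 was 2-fold apart in rIL-17B replicate 2, where 0.575% of all genes were 2-fold lower and 0.0611% 2-fold higher. In the group means, 6 members were at least 2-fold lower with rIL-17B (IRS2 and IGFBP2 to IGFBP6) and 0 at least 2-fold higher, beside 8.33% and 0.165% of all genes. In rIL-17B replicate 2, IRS2, IGFBP2 and IGFBP5 were at least 20% below the PBS mean and 0 members at least 25% above it (0.5 CPM added), beside 12.5% and 5.32% of all genes. Over the 6 genes the median log2 fold change was -1.25, against -0.03 over all genes tested. Replicates 1 and 2 of rIL-17B had median log2 ratios to the PBS mean of -4.28 and -0.28, against 0.08 and -0.0013 over all genes. None of the 6 passed edgeR's test, with adjusted p values between 0.661 and 0.737.

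**Figure D3:**
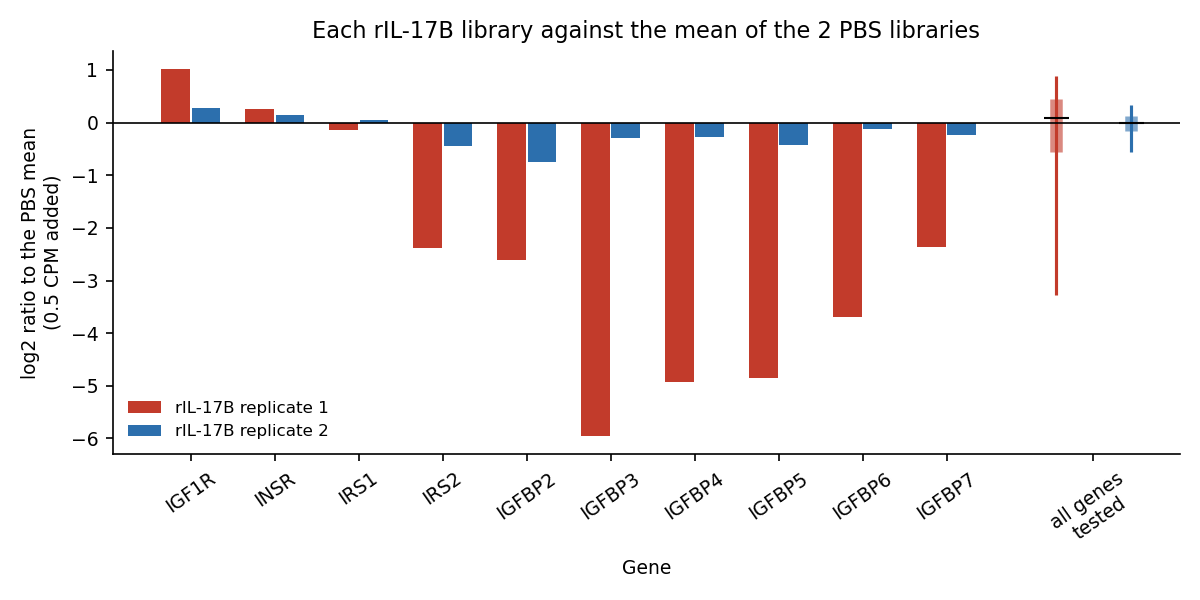
Bars give the log2 ratio of CPM to the mean of the 2 PBS libraries (vertical axis, 0.5 CPM added) for each gene (horizontal axis) in the 2 rIL-17B libraries, and at the right the thick bars cover the middle 50% and the thin lines the middle 90% of all genes tested, with a dash at the median. IGFBP3, IGFBP4, IGFBP5 and IGFBP6 lie below the 5th percentile of all genes in rIL-17B replicate 1, which is -3.28, and IGFBP2 at -0.75 lies below that of replicate 2, which is -0.55.

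IGFBP3, the main IGF carrier of blood (chromosome 7, 45912245 to 45921874), had 5451 and 4005 counts in the controls, against 70 and 4709 in the treated libraries. Its 343 and 311 CPM with PBS stood against 4.79 CPM (95% Poisson interval 3.73 to 6.05) in rIL-17B replicate 1, which is 68.2-fold below the PBS mean, and 268 CPM in replicate 2. This was the widest range of any member, 6.02 on the log2 scale with 0.5 CPM added. Its log2 fold change of -1.27 had a SE of 1.79 (edgeR adjusted p = 0.737).

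IGFBP4, the main substrate of the protease PAPPA (chromosome 17, 40443461 to 40457731), had 10853 and 8482 counts in the controls, against 316 and 9691 in the treated libraries. The levels were 682 and 658 CPM with PBS against 21.6 and 552 CPM, and replicate 1 was 31.0-fold below the PBS mean. IGFBP5, which also binds to the extracellular matrix (chromosome 2, 216672105 to 216695525), had 946 and 922 counts in the controls, against 26 and 849 in the treated libraries. Its 59.5 and 71.5 CPM stood against 1.78 CPM (95% Poisson interval 1.16 to 2.61) and 48.4 CPM, and replicate 1 was 36.8-fold below the PBS mean. Of the exon bases of IGFBP5, 298 overlap AC007563.2 on the other strand. The log2 fold changes of IGFBP4 and IGFBP5 were -1.23 (SE 1.54) and -1.39 (SE 1.52).

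IGFBP6, which prefers IGF2 over IGF1 (chromosome 12, 53097436 to 53102345), had 1045 and 846 counts in the controls, against 67 and 1058 in the treated libraries. The PBS libraries were alike at 65.7 and 65.6 CPM, and the treated libraries had 4.58 and 60.3 CPM. Replicate 1 was 14.3-fold below the PBS mean, and replicate 2 was at 91.8% of it, the smallest shift of a binding protein there. IGFBP7, which binds IGFs only weakly (chromosome 4, 57030773 to 57110385), had 2896 and 2127 counts in the controls, against 484 and 2598 in the treated libraries. Its level was 182 and 165 CPM with PBS against 33.1 and 148 CPM, and replicate 1 was 5.24-fold below the PBS mean, the smallest shift of a binding protein in that library. IGFBP7 shares 270 exon bases with POLR2B and 94 with IGFBP7-AS1 on the other strand.

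IGFBP2, which is abundant in many tumors (chromosome 2, 216632828 to 216664436), had 954 and 1168 counts in the controls, against 173 and 781 in the treated libraries. It varied most between the PBS libraries, with 60.0 and 90.6 CPM, a ratio of 1.51, where the other members differed by at most 1.20-fold. The treated libraries had 11.8 and 44.5 CPM, or 15.7% and 59.1% of the PBS mean. Its log2 fold change of -1.45 (SE 0.77, edgeR adjusted p = 0.661) was the lowest of the 10.

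The binding proteins were not lower by a common factor in rIL-17B replicate 1, and their mix was another one there. IGFBP7 took 13.1% and 12.1% of the counts of the 6 genes with PBS and 13.2% in rIL-17B replicate 2, but 42.6% (exact 95% binomial interval 39.7 to 45.5) in replicate 1. IGFBP2 took 4.31% and 6.66% with PBS, 3.97% in replicate 2 and 15.2% (13.2 to 17.5) in replicate 1. The share of IGFBP3 went the other way, with 24.6% and 22.8% with PBS, 23.9% in replicate 2 and 6.16% (4.83 to 7.72) in replicate 1. IGFBP4 held 49.0% and 48.3% with PBS, 49.2% in replicate 2 and 27.8% (25.2 to 30.5) in replicate 1. Shares are of counts and are compared between libraries only.

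With rIL-17B replicate 1 left out, edgeR set the remaining treated library against the 2 PBS libraries. This fit has 1 residual degree of freedom and takes the lone library to vary like the PBS libraries, so it compares that library and not the treatment. Of the 10 members, 5 were then lower past the adjusted threshold, where 2.3% of all genes were, and 1 was higher, where 0.643% were. The lower genes were IGFBP2, at a log2 fold change of -0.75 (edgeR adjusted p = 9.81e-10), IGFBP5 at -0.44 (0.00351), IRS2 at -0.45 (0.00952), IGFBP4 at -0.28 (0.0222) and IGFBP3 at -0.29 (0.0285). IGF1R was the higher gene, at 0.27 (edgeR adjusted p = 0.0480). IGFBP7 at -0.24 (0.144), INSR at 0.15 (0.674), IGFBP6 at -0.13 (0.653) and IRS1 at 0.05 (0.913) did not pass. With rIL-17B replicate 2 left out instead, 8 members were lower and 1 higher past the threshold, where 31.9% and 23.2% of all genes were, and INSR did not pass (log2 fold change 0.12, edgeR adjusted p = 0.428).

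The other genes of the pathway were read from a list of 73 in 8 groups, of which 66 were tested. No list gene was called after adjustment by edgeR or by DESeq2. An unadjusted p under 0.05 was found for 1 by edgeR, beside 1.38% of all genes, and for 2 by DESeq2, beside 457 of all 16361. The gene in edgeR was PIK3R3, a regulatory subunit of PI3K, with a log2 fold change of -0.52. Their median log2 fold change was -0.09, with 40 genes below and 26 above 0. In rIL-17B replicate 1, 13 of the 66 were at least 2-fold below the PBS mean and 0 above, which is 19.7% beside 18.6% of all genes. With rIL-17B replicate 1 left out, the log2 fold change was -0.38 for GRB10, an adaptor that restrains both receptors, and -0.36 for PIK3R3. Both were picked from that fit, which compares the lone treated library and not the treatment.

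**Figure D4:**
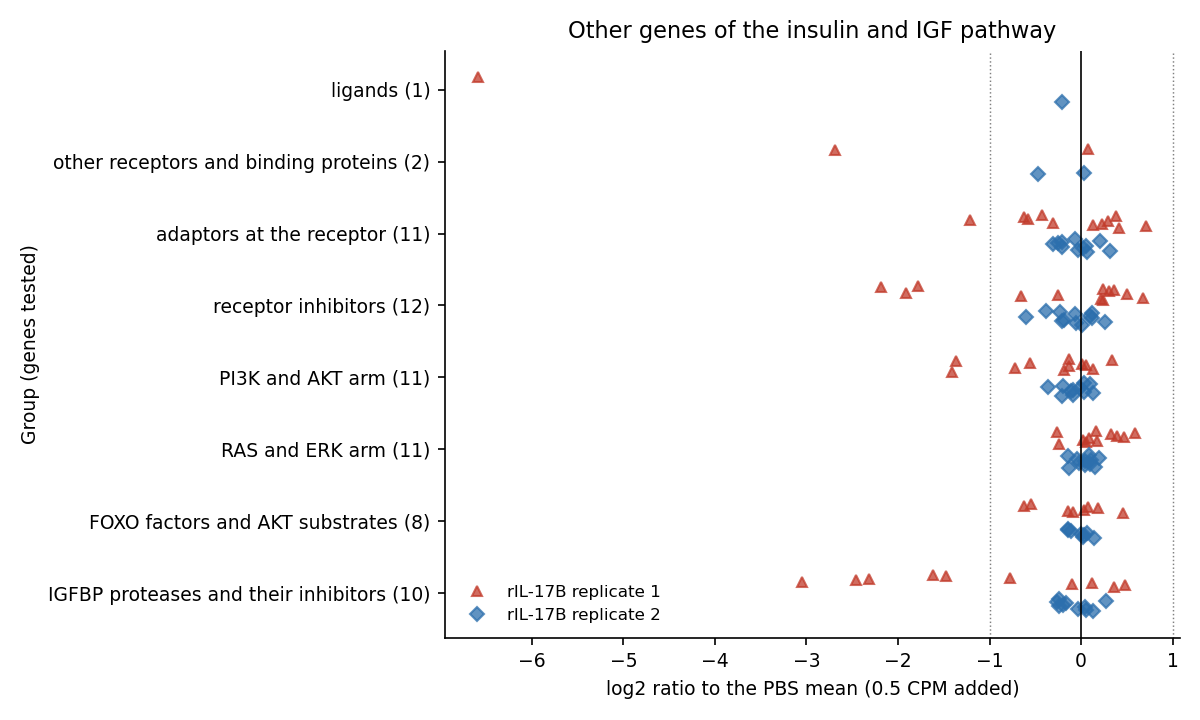
Each point is a tested gene of the pathway list, placed by its log2 ratio to the PBS mean (horizontal axis, 0.5 CPM added) in rIL-17B replicate 1 (triangles) or replicate 2 (diamonds), with the 8 groups on the vertical axis and dotted lines at 2-fold. In replicate 2 none of the 66 genes is 2-fold apart, beside 0.575% of all genes 2-fold lower and 0.0611% 2-fold higher. In replicate 1, 5 of the 10 genes of the protease group and 0 of the 11 RAS and ERK genes are at least 2-fold lower. Of all genes, 18.6% are.

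Among the ligands, insulin (INS) had 0 counts in each library, which allows at most 0.171 to 0.233 CPM, and IGF1 had between 6 and 12 counts and was not tested. IGF2, a growth factor of fetal tissues and tumors, reached 723 and 638 counts in the controls, against 0 and 721 in rIL-17B replicates 1 and 2. Against the floor of 3 counts in that library, IGF2 was at least 231-fold lower in replicate 1 than in the PBS mean, while replicate 2 had 41.1 CPM beside 45.5 and 49.5 CPM with PBS. The annotation holds 2 entries named IGF2, so reads of overlapping transcripts are uncertain. IGF2R, which takes up IGF2 for degradation, had 443 and 438 CPM in the controls, against 464 and 451 CPM in the treated libraries. Its fitted log2 difference was -0.017 (SE 0.12). The signs differ because the CPM are scaled by library total and the fit by TMM, with a factor of 1.07 for rIL-17B replicate 1. The IGFBP-like gene IGFBPL1 had 35 and 42 counts with PBS, 0 in rIL-17B replicate 1 and 32 in replicate 2.

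The group listed as IGFBP proteases and their inhibitors held 10 genes, including the more general proteases FURIN and IDE. Of the 10, 5 were at least 2-fold lower in rIL-17B replicate 1, beside 18.6% of all genes. Both treated libraries were below both PBS libraries for 6, beside 27.5% of all genes. ADAM12, a membrane protease that cuts IGFBP3 and IGFBP5, had 90.7 and 92.5 CPM in the controls, against 10.6 and 77.2 CPM in the treated libraries. STC2, an inhibitor of PAPPA, had 513 and 481 CPM in the controls, against 99.0 and 444 CPM in the treated libraries. PAPPA itself, which lies outside the naming rule and was picked after its values were seen, had 180 and 178 CPM in the controls, against 57.8 and 152 CPM in the treated libraries. ADAM9, another protease, had 405 and 388 CPM against 431 and 408 CPM. None passed edgeR's test, and the median log2 fold change of the group was -0.53.

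Between the receptors and their effectors the medians, though not each gene, were nearer to PBS than in the protease group. In rIL-17B replicate 1 the median log2 ratio to the PBS mean was 0.13 for the adaptors and 0.22 for the receptor inhibitors. The protease group had -1.13 there. Of the 11 adaptors, 1 was at least 2-fold lower in rIL-17B replicate 1, beside 18.6% of all genes. This was DOK1, a docking protein that dampens kinase signals. It had 17.4 and 15.9 CPM in the controls, against 6.91 and 13.3 CPM in the treated libraries. PTPN11, the phosphatase SHP2 that aids RAS activation, had 261 and 268 CPM in the controls, against 351 and 277 CPM in the treated libraries. SHC1 had 201 and 200 CPM against 149 and 192 CPM. Of the 12 receptor inhibitors 3 were 2-fold lower in rIL-17B replicate 1, GRB10, GRB14 and SOCS1, beside the same 18.6% of all genes. GRB10 had 117 and 150 CPM in the controls, against 38.7 and 103 CPM in the treated libraries. SOCS1 had at most 25 counts in any library, and GIGYF1 had between 101 and 123 CPM.

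In the PI3K and AKT arm 2 of 11 tested genes were 2-fold lower in rIL-17B replicate 1, beside 18.6% of all genes. These were PIK3R1, another regulatory subunit of PI3K, and TRIB3, a pseudokinase that binds AKT. TRIB3 had 173 and 171 CPM in the controls, against 64.6 and 149 CPM in the treated libraries. INPPL1, a lipid phosphatase, had between 158 and 185 CPM. None of the 11 genes of the RAS and ERK arm and none of the 8 FOXO factors and AKT substrates was 2-fold apart in either treated library. Of all genes, 18.6% were 2-fold lower and 2.61% 2-fold higher in replicate 1, and 0.575% and 0.0611% in replicate 2. HRAS had 28.5 and 27.9 CPM in the controls, against 42.6 and 32.5 CPM in the treated libraries. MAP2K2, which encodes an ERK kinase, lay between 168 and 193 CPM. FOXO3, a transcription factor that AKT keeps out of the nucleus, had 60.0 and 63.3 CPM in the controls, against 39.7 and 55.7 CPM in the treated libraries. GSK3B lay between 108 and 118 CPM and TSC2 between 94.1 and 111 CPM.

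The pattern of IGFBP3 over the 4 libraries was compared with those of 10845 other tested genes with a mean of at least 100 counts, by the sum over libraries of the absolute differences in log2 CPM, each centred on its PBS mean. The nearest were OAS2 (distance 0.07), SH3RF3 (0.08) and OLFML3 (0.14). OAS2, an interferon-induced enzyme, had 522 and 379 counts in the controls, against 0 and 439 in the treated libraries. SH3RF3 had 505 and 383 counts in the controls, against 0 and 435, and OLFML3 had 1057 and 730 counts against 7 and 899 counts. The 0.5 CPM added before taking the logarithm limits how far a gene with 0 counts can fall, so that the likeness in rIL-17B replicate 1 depends on it.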

How the data were processed

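The authors deposited raw counts, the whole number of reads per gene name, 1 table per library. The submitters' processing notes name Bowtie2 2.2.3, HISAT2 2.1.0, TopHat2, HTSeq 0.6.0 and hg38, without roles. Which annotation was counted, and whether strand was used, is not given in the sources used here. Groups came from the treatment labels. Names listed more than once carried equal counts and were used once. Names turned into numbers by a spreadsheet, 22 to 25 per table and at most 0.244% of the counts, were dropped, and missing genes were set to 0. The test was that of edgeR 4.0.16, run in R 4.3.3 (TMM, filterByExpr, quasi-likelihood F test, Benjamini-Hochberg over 16361 genes, threshold 0.05). The standard error is the log2 fold change divided by the square root of F. Ratios to PBS used 0.5 CPM added. TMM moved the median log2 ratio of all genes in rIL-17B replicate 1 from 0.08 to -0.04. Exon lengths and overlaps came from GENCODE 29, with all transcripts of a gene merged. Alternatives were DESeq2 1.42.0, other normalizations and filters, a replicate block and leaving out each library. The members and lists were chosen with earlier results of these data known. Named list genes were the 2 highest and the most changed of each group, some of which are not reported here.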

Additional observations from a re-analysis of the deposited data

How the results depend on the processing

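The counts of 0 calls among all genes, the 10 members and the 66 list genes were also 0 with RLE and upper-quartile normalization, without a filter, under a minimum of 10 counts per library, by DESeq2 and in the fit with a replicate block. Over these settings the adjusted p of the members lay between 0.551 and 0.881. The block changed no call but moved the log2 fold changes of IGFBP3 to -3.20, IGFBP4 to -2.68, IGFBP5 to -2.75 and IGFBP6 to -2.01. The labels do not say that same-numbered libraries were handled together, and their deviations from the group means correlated at 0.08 over 16361 genes. Leaving out 1 library at a time gave between 0 and 9489 calls among all genes, 0 and 9 among the members and 0 and 42 in the pathway list, with 504, 6 and 2 calls without rIL-17B replicate 1 and the highest counts without rIL-17B replicate 2. Without either PBS library there were 0.

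Members with group means at least 2-fold lower numbered 6, and between 0 and 7 with 1 library left out. Without rIL-17B replicate 1 there were 0, beside 0.575% of all genes, and without rIL-17B replicate 2 there were 7, beside 18.6%. Members at least 2-fold higher numbered 0, and 1 without rIL-17B replicate 2, beside 2.61% of all genes. Without PBS replicate 1, 1 member, IGFBP2, was 2-fold apart in rIL-17B replicate 2. The share of all genes was not counted with a PBS library left out. No CPM added or TMM-normalized CPM moved none of these counts by over 1.5 times, though with TMM the members 2-fold apart in rIL-17B replicate 1 went from 8 to 7, without IGF1R. Log2 fold changes near 0 changed sign: under the minimum of 10 counts GIGYF1 (-0.028), MAP2K2 (-0.000475) and ADAM9 (-0.030), by DESeq2 ADAM9 (-0.000112), and with 1 library left out IRS1 (-0.28 to 0.048), IGF2R (-0.063 to 0.030), GIGYF1 (-0.053 to 0.081), GSK3B (-0.22 to 0.015) and ADAM9 (-0.030 to 0.048). The cause was not tested. The 4 libraries limit the test.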
